A study of Rattus norvegicus with 2 samples.

Results

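Amino acid and neurotransmitter transporters are the membrane proteins that move glutamate, GABA, glycine and the other amino acids, and a few related amines, across the cell surface and out of lysosomes. The genes described here carry symbols that start with Slc1a, Slc3a, Slc6a, Slc7a, Slc36a, Slc38a or Slc43a, and 62 of the 22093 genes with a symbol of their own on the array fall under this rule. One of them, Slc7a6os, is named for its place opposite Slc7a6 and is no transporter gene, but it was kept in the counts. Each of the 62 genes was read by 1 probe set.

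The co-cultured sample is rat neural stem cells (NSCs) that grew for 14 days on ectodermal mesenchymal stem cells (EMSCs) and were then separated from them by fluorescence-activated sorting. The EMSCs, at passage 3, came from transgenic rats that express green fluorescent protein (GFP), and the co-culture medium held 10% serum. The mono-cultured sample is NSCs kept alone for 14 days. All NSCs came from whole brains of SD rat embryos at day 13.5 and had formed neurospheres for 10 days. Their own growth medium was serum-free and held 1% of a supplement of non-essential amino acids, 1% of a further supplement and 2 mM glutamine. It also held the growth factors bFGF and EGF at 25 ng/mL each. The labels do not name the medium of the 14 days of mono-culture, so a difference of amino acid supply or serum between the samples cannot be told apart from the presence of EMSCs. Each condition is 1 array, so the differences below could not be checked against replicates and were not tested.

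Levels are log2 RMA values, on which a step of 1 is a 2-fold change, and every difference was taken as co-cultured minus mono-cultured. A gene was kept if its higher level reached 4.97, the median of all gene levels. The 95th percentile of the negative control probe sets was 6.64 and is called the negative control level. A level under it may be mostly background, which shrinks or distorts a difference. The 399 positive control probe sets differed between the arrays with an SD of 0.44, and the central 95% of their differences ran from -1.15 to 0.61. The 1153 negative control probe sets, nearer to dim genes, differed with an SD of 0.65 and a central range from -1.44 to 1.11. Of these 1153, 38 stood 2-fold or more higher in co-culture and 110 lower. Probe sets of the same gene differed from one another with an SD of 0.26, over 478 genes with more than 1 bright probe set. Levels of different genes were not compared, because each probe set has its own brightness.

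In the brain, glutamate and GABA released at synapses are cleared mainly by sodium-driven transporters of astrocytes, and glutamine returns to neurons through a pair of transport steps, export from astrocytes and uptake by neurons. Large neutral amino acids cross the membrane through heterodimers of a heavy chain and one of several light chains, which exchange one amino acid for another. Several neutral and cationic transporters are also known targets of ATF4, the transcription factor that cells make more of when amino acids run short. ATF4 binds, with partners of the C/EBP family, a composite DNA element.

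Of the 62 genes, 35 were kept and 27 were dim on both arrays. In co-culture 6 kept transporter genes stood 2-fold or more above mono-culture (17.1%), against 5.04% of the 11849 kept genes. Another 9 kept transporter genes stood 2-fold or more below it (25.7%), against 5.54% of kept genes. The other 20 lay within 2-fold, and the median difference was -0.13, beside -0.06 over all kept genes. The differences were wider spread among the kept transporter genes (SD 1.26) than among all kept genes (SD 0.79). Of the 35 genes, 9 reached 4.97 on 1 array only, and 8 of these stood past 2-fold, as a gene that passes through 1 array only tends to differ by construction. Over the 26 genes that reached 4.97 on both arrays, 3 were 2-fold or more higher and 4 lower, beside 3.06% higher and 2.96% lower of the 10245 genes under the same filter.

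**Figure D1:**
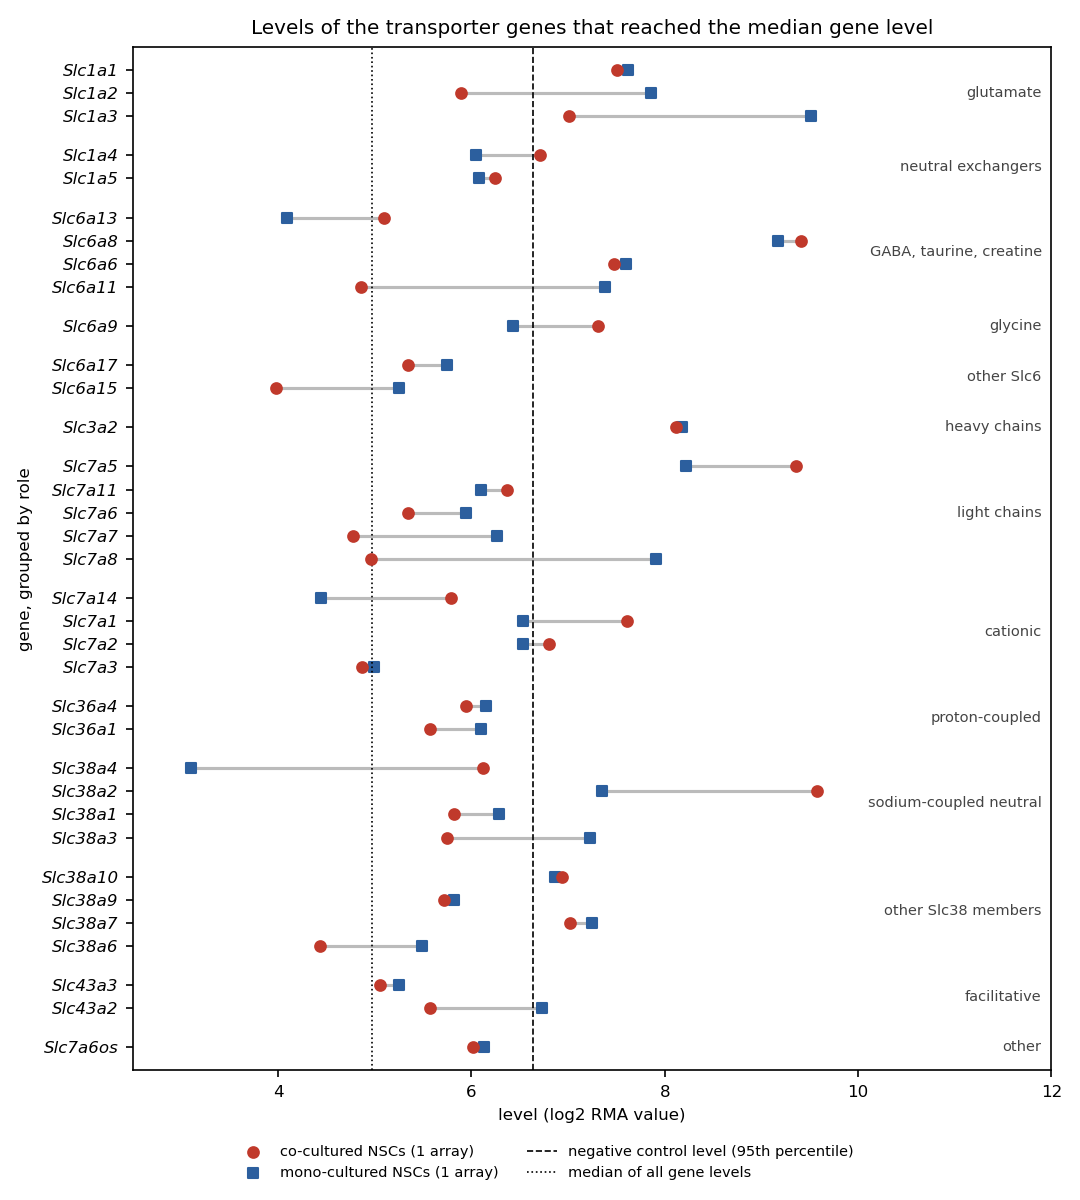
Levels (log2 RMA value, x axis) of the 35 kept genes, grouped by role, with 1 array per condition. Circles are co-cultured and squares mono-cultured NSCs, the dashed line is the negative control level (6.64) and the dotted line the median of all gene levels (4.97). Slc1a3, Slc1a2, Slc6a11 and Slc7a8 have their circles far left of their squares, and Slc38a2 and Slc38a4 far right.

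The astrocyte-type glutamate transporters were lower in co-culture, while the neuronal type lay within 2-fold. Slc1a3 had a level of 7.01 in co-cultured NSCs and 9.51 in mono-cultured NSCs, a difference of -2.50. It codes for a glutamate transporter of astrocytes and radial glia, and it was above the negative control level on both arrays. Slc1a2, which codes for the main glutamate transporter of mature astrocytes, stood at 5.89 in co-culture against 7.86 in mono-culture, a difference of -1.96. Slc1a1, the transporter found mainly in neurons, which also takes up cysteine, was 7.50 in co-cultured and 7.62 in mono-cultured NSCs. Slc1a6 and Slc1a7, known from cerebellar Purkinje cells and from the retina, were dim on both arrays, with levels between 3.67 and 3.88.

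Among the transporters of GABA and related compounds, the astrocyte gene was again lower. Slc6a11, an astrocyte GABA transporter, was 4.86 in co-culture against 7.38 in mono-culture, so that its level in co-culture lay under the negative control level and the difference of -2.52 depends on the background. Slc6a13, a GABA and taurine transporter known in mouse from the meninges and liver, had 5.10 in co-cultured and 4.09 in mono-cultured NSCs. Its difference of 1.01 just passed 2-fold but lay inside the central range of the negative controls, and both levels lay under the negative control level. The taurine transporter gene Slc6a6 was 7.48 in co-cultured and 7.60 in mono-cultured NSCs. The creatine transporter gene Slc6a8 was 9.41 in co-cultured and 9.17 in mono-cultured NSCs. These last 2 genes, well above the negative control level on both arrays, differed by less than the SD of the positive controls.

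The glial glycine transporter gene Slc6a9 was 7.31 in co-culture against 6.43 in mono-culture, a difference of 0.88 that stayed short of 2-fold. This difference lay above the central range of the positive controls but inside that of the negative controls. In mono-culture Slc6a9 was under the negative control level. Its neuronal counterpart Slc6a5 was dim (3.70 in co-culture, 3.44 in mono-culture). The 3 monoamine transporter genes, Slc6a2 for noradrenaline, Slc6a3 for dopamine and Slc6a4 for serotonin, were also dim, with differences of 0.05 to 0.30. Among the other Slc6 genes, Slc6a15, a neuronal transporter of branched-chain amino acids and proline, was 3.97 in co-cultured and 5.25 in mono-cultured NSCs. Slc6a17, which loads neutral amino acids into synaptic vesicles, was 5.35 in co-cultured and 5.75 in mono-cultured NSCs. Both genes stayed under the negative control level on both arrays, and both differences lay inside the central range of the negative controls.

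Sodium-coupled neutral transporters moved apart from one another. Slc38a2, a glutamine and alanine importer that cultured cells are known to induce when amino acids are scarce, had 9.58 in co-culture against 7.35 in mono-culture. Its difference of 2.23, a ratio of 4.69, was the largest upward one among genes above the negative control level on both arrays. Slc38a4, a related transporter known from liver and placenta, was 6.12 in co-culture against 3.10 in mono-culture. Its difference of 3.03 is the largest upward one of all 62 genes, but both levels lay under the negative control level. Slc38a3, which exports glutamine from astrocytes, went the other way, with 5.74 in co-culture against 7.22 in mono-culture, a difference of -1.48. Slc38a1, a glutamine importer of neurons, was 5.82 in co-cultured and 6.29 in mono-cultured NSCs, a difference of -0.47. In the RefSeq annotation of GRCr8, Slc38a1, Slc38a2 and Slc38a4 follow each other on chromosome 7 with 0 protein-coding genes between neighbours, so adjacent genes of this cluster differed by -0.47, 2.23 and 3.03.

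Among Slc38 genes of lysosomes or of less settled place, Slc38a6 was lower in co-culture, at 4.43 against 5.49 in mono-culture, a difference of -1.06 that lies inside the central range of the positive controls. Slc38a7, which releases glutamine from lysosomes, was 7.02 in co-cultured and 7.25 in mono-cultured NSCs. Slc38a9, the lysosomal arginine sensor of the growth kinase complex mTORC1, was 5.71 in co-cultured and 5.82 in mono-cultured NSCs. Slc38a10 was 6.93 in co-cultured and 6.87 in mono-cultured NSCs, so these last 3 genes differed by 0.23 or less in size.

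Light chains differed in opposite directions, while their shared heavy chain differed by -0.07. Slc3a2, the heavy chain, was 8.12 in co-cultured and 8.18 in mono-cultured NSCs. Slc7a5, the light chain that imports leucine and other large neutral amino acids in dividing cells, was 9.36 in co-culture against 8.22 in mono-culture, a difference of 1.14 with both levels above the negative control level. Slc7a8, a light chain with a wider range of neutral amino acids, was 4.97 in co-culture against 7.91 in mono-culture. The level in co-culture lay under the negative control level, and the difference of -2.95 became -1.27 with levels raised to 6.64, against -2.50 for Slc1a3 at that floor. Slc7a7, a light chain that exports arginine and lysine in gut, kidney and macrophages, was 4.77 in co-cultured and 6.26 in mono-cultured NSCs, with both levels under the negative control level. Slc7a6, a close relative with the same transport mode, was 5.35 in co-cultured and 5.95 in mono-cultured NSCs. Slc7a11, which takes up cystine in exchange for glutamate, was 6.37 in co-cultured and 6.10 in mono-cultured NSCs, a difference of 0.26. The heavy chain Slc3a1, known from kidney, and the light chains Slc7a9, Slc7a10, Slc7a12, Slc7a13 and Slc7a15 were dim on both arrays.

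Of the 4 kept cationic transporters of the Slc7 family, 2 were 2-fold or more higher and 2 lay within 2-fold. Slc7a1, the general importer of arginine and lysine, was 7.61 in co-culture against 6.53 in mono-culture, a difference of 1.08. Slc7a14, a related protein whose substrate is less settled, was 5.79 in co-culture against 4.44 in mono-culture, a difference of 1.35 with both levels under the negative control level. Slc7a2, an arginine importer inducible in macrophages, was 6.80 in co-cultured and 6.54 in mono-cultured NSCs. Slc7a3 was 4.87 in co-cultured and 4.99 in mono-cultured NSCs, and Slc7a4 was dim. Both neutral exchangers of the Slc1 family lay within 2-fold. Slc1a4, an exchanger of serine and alanine, was 6.71 in co-culture against 6.05 in mono-culture. Slc1a5, the glutamine exchanger of dividing cells, was 6.24 in co-cultured and 6.08 in mono-cultured NSCs.

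Facilitative and proton-coupled transporters completed the set. Slc43a2, which lets large neutral amino acids pass without sodium, was 5.57 in co-culture against 6.73 in mono-culture. Its difference of -1.15 lay at the edge of the positive control range. Slc43a3 was 5.05 in co-cultured and 5.25 in mono-cultured NSCs, and Slc43a1 was dim, with 4.71 in co-cultured and 4.18 in mono-cultured NSCs. Slc36a1, which carries small amino acids and protons out of lysosomes, was 5.57 in co-cultured and 6.10 in mono-cultured NSCs. Slc36a4 was 5.94 in co-cultured and 6.15 in mono-cultured NSCs, and Slc36a2 and Slc36a3 were dim. Slc7a6os was 6.01 in co-cultured and 6.13 in mono-cultured NSCs.

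**Figure D2:**
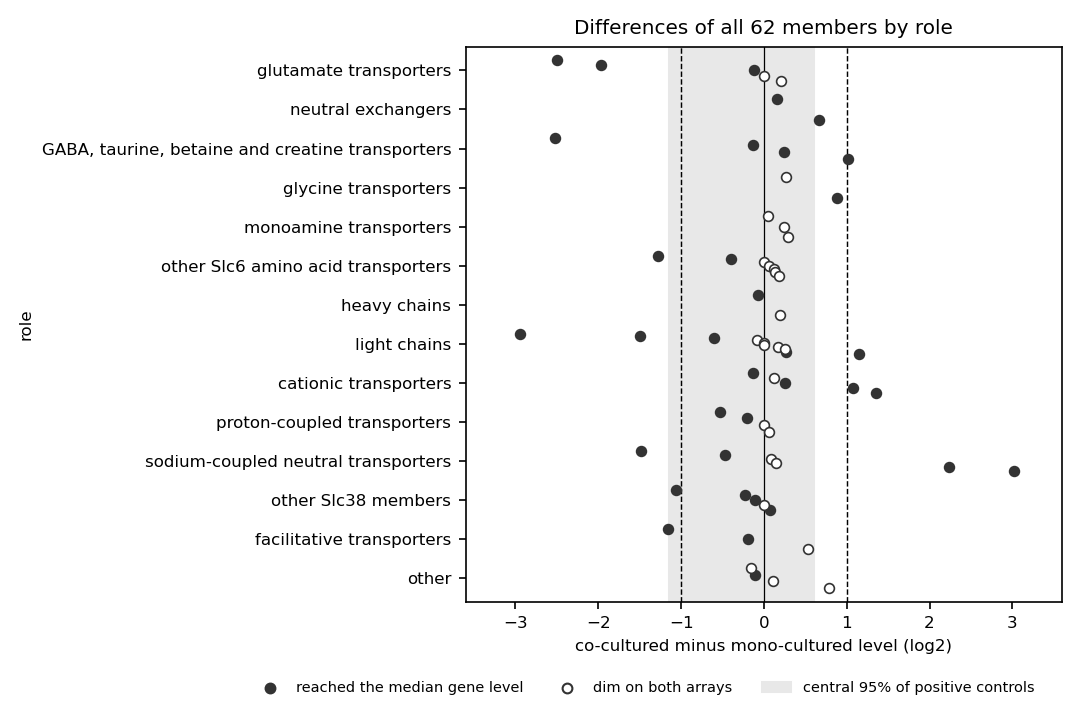
Differences (co-cultured minus mono-cultured, log2, x axis) of all 62 genes by role. Filled points are the 35 kept genes, open points the 27 dim ones, dashed lines mark 2-fold and the grey band is the central 95% of positive controls (-1.15 to 0.61). Open points all lie inside 2-fold, and 6 filled points lie beyond it on the right and 9 on the left.

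The 27 dim genes had levels from 1.28 to 4.92 and differences from -0.16 to 0.79, with Slc6a20a at the upper end. Besides those named above, they are Slc6a7, Slc6a14, Slc6a16, Slc6a18, Slc6a19, Slc6a21, Slc7a12l1, Slc38a5, Slc38a8 and Slc38a11. Of these 27 genes, 6 had exactly the same value on both arrays, namely Slc1a6, Slc6a18, Slc7a10, Slc7a12, Slc36a2 and Slc38a11. Identical values occurred in 6.40% of all genes, so a difference of 0 at such a level is a feature of the deposited table and no measure of equal expression.

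Brightness limited what the 15 differences past 2-fold can show. Both levels lay above the negative control level for 3 of them, Slc1a3, Slc7a5 and Slc38a2. For 6 others only the higher level did, namely Slc7a1 in co-culture and Slc1a2, Slc6a11, Slc7a8, Slc38a3 and Slc43a2 in mono-culture. Neither level did for the remaining 6, Slc38a4, Slc7a14, Slc6a13, Slc7a7, Slc6a15 and Slc38a6. With both levels of every kept gene raised to at least 6.64, 2 genes (Slc38a2 and Slc7a5) were still 2-fold or more higher and 3 (Slc1a3, Slc1a2 and Slc7a8) lower, beside 1.70% higher and 1.59% lower of all kept genes at that floor.

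**Figure D3:**
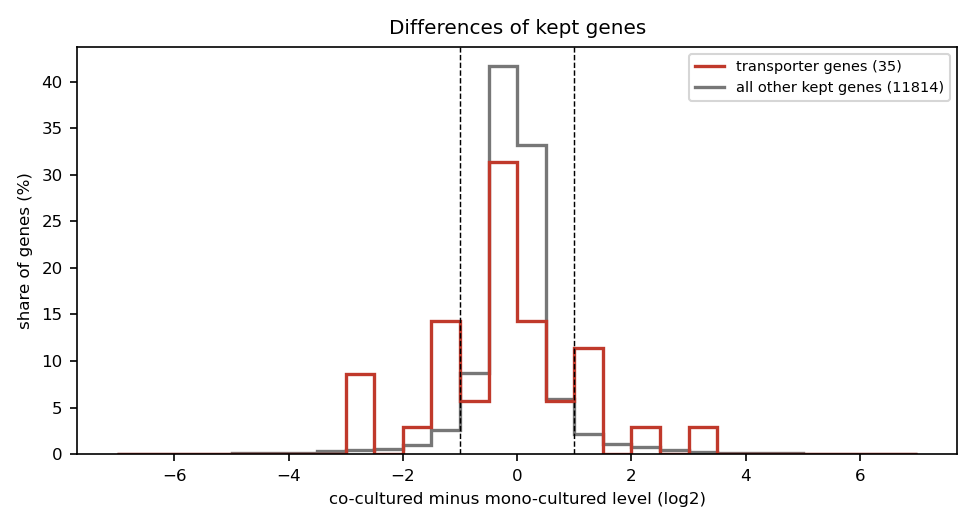
Share of genes (%, y axis) by difference (co-cultured minus mono-cultured level, log2, in steps of 0.5), for the 35 kept transporter genes and for the 11814 other kept genes. The transporter genes have 42.9% of their number beyond the dashed 2-fold lines, against 10.6% of all kept genes. Of the 15 transporter genes beyond the lines, 8 had their lower level under the median of all gene levels. Such genes tend to differ by construction of the filter. With both levels required to reach that median, 3 of 26 transporter genes were higher and 4 lower. Of the 10245 genes under the same filter, 3.06% were higher and 2.96% lower.

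Genes that act on the same amino acids were read from lists outside the rule. Of 14 kept genes of the amino acid response, 4 stood 2-fold or more above mono-culture and 0 below it, against 5.04% and 5.54% of all kept genes. The median difference of the 14 genes was 0.55, beside -0.06 over all kept genes. The stress-response gene Nupr1 was 8.12 in co-culture against 6.02 in mono-culture. Chac1, a glutathione-degrading enzyme, was 6.88 against 5.16 in mono-culture. Asns, the asparagine synthetase, and the transcription factor gene Atf3 differed by 1.05 and 1.04. Asns was above the negative control level on both arrays, while Nupr1, Chac1 and Atf3 were above it in co-culture only. Atf4 itself, which is controlled largely at translation, differed by 0.69. Among the transporter genes known as ATF4 targets, of which no fixed list was used, Slc7a1, Slc7a5 and Slc38a2 differed by 1.08, 1.14 and 2.23. Others lay within 2-fold, with Slc7a11 at 0.26, Slc1a5 at 0.16, Slc3a2 at -0.07 and Slc7a3 at -0.13. Slc3a2 was above the negative control level on both arrays. Slc7a11, Slc1a5 and Slc7a3 were under it on both, so background may have shrunk their differences. These transporter genes were picked with their values known, and the choice left out Slc1a4 (0.66) and Slc6a9 (0.88), also within 2-fold. Not all genes of the amino acid response list were higher, as Ddit4 differed by -0.94 and Ddit3 by -0.33.

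Promoters were searched for the core of the composite element bound by ATF4, because the transporter genes that were higher include known ATF4 targets. The letters TGATGNAA, on either strand, were looked for in the 250 bases before each gene start of RefSeq on GRCr8. They occurred in 3 of 52 promoters (48 genes) of the transporter genes, in 5 of 13 promoters of the amino acid response list and in 3.40% of all 33469 promoters. That list was made of known factors and targets of the response, so its share is no independent result. Among the transporter genes at least 2-fold higher, Slc7a1 had a match and the other 4 with a promoter in the table had none, and among those at least 2-fold lower 0 of 10 promoters (7 genes) had one. The matches, in capitals and with up to 25 bases on each side, are shown for the 3 transporter genes and for Nupr1 and Chac1, the genes of the list with the largest differences. The other 3 genes of the list with a match, Trib3, Fgf21 and Herpud1, differed by 0.77, 0.00 and -0.12. The positions are those of the printed windows, and the strand is that of the gene. Slc7a1 is on the plus strand, with its window at chr12:11664433-11664487 and the match 30 bases before the start. The next 3 genes are on the minus strand, with windows at chr14:98761765-98761812 (Slc1a4), chr7:129681511-129681568 (Slc38a1) and chr1:190645924-190645981 (Nupr1), and Chac1 is on the plus strand, with its window at chr3:126795939-126795996. The match reads TGATGNAA along the gene in Slc7a1 and Slc38a1, and on the opposite strand in Slc1a4, Nupr1 and Chac1.
Slc7a1: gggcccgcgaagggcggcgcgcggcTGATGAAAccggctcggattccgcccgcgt
Slc1a4: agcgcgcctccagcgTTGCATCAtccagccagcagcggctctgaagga
Slc38a1: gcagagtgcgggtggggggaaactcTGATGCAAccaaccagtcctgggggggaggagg
Nupr1: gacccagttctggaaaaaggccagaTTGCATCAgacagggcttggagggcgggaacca
Chac1: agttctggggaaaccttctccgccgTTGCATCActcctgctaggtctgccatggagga

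Each line runs in the direction of its gene. Slc7a1, Slc1a4, Slc38a1, Nupr1 and Chac1 differed by 1.08, 0.66, -0.47, 2.10 and 1.71. The negative difference, that of Slc38a1, lay inside the central range of the positive controls, with both levels under the negative control level. Whether the match goes with the direction of a difference was not tested. A match is a description of the letters, and elements in introns or first exons were not searched.

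Of 15 kept genes of serine, glycine and cysteine metabolism, 1 was at least 2-fold higher and 2 lower, with a median of -0.15. Over all kept genes 5.04% were higher and 5.54% lower, with a median of -0.06. Cth, which makes cysteine from cystathionine, was 6.38 in co-culture against 5.05 in mono-culture. Psat1, an enzyme of serine synthesis, was 7.75 in co-culture against 6.88 in mono-culture. Gldc, which breaks down glycine, was 4.51 in co-culture against 6.05 in mono-culture, and Cdo1, which oxidises cysteine, was 6.21 against 7.55 in mono-culture. Both levels of Cth and Gldc, and the co-culture level of Cdo1, lay under the negative control level. Of 11 kept genes for glutamate and GABA metabolism and vesicular loading, 0 passed 2-fold, with differences from -0.82 to 0.60. Aldh5a1 and Abat, enzymes that degrade GABA, and Gad1, which makes it, differed by -0.82, -0.59 and -0.64, and Aldh18a1, which starts proline synthesis, by 0.60. Aldh5a1 and Gad1 were under the negative control level on both arrays, and Abat in co-culture. Glul, the glutamine synthetase of astrocytes, was 8.25 in co-cultured and 8.04 in mono-cultured NSCs.

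**Figure D4:**
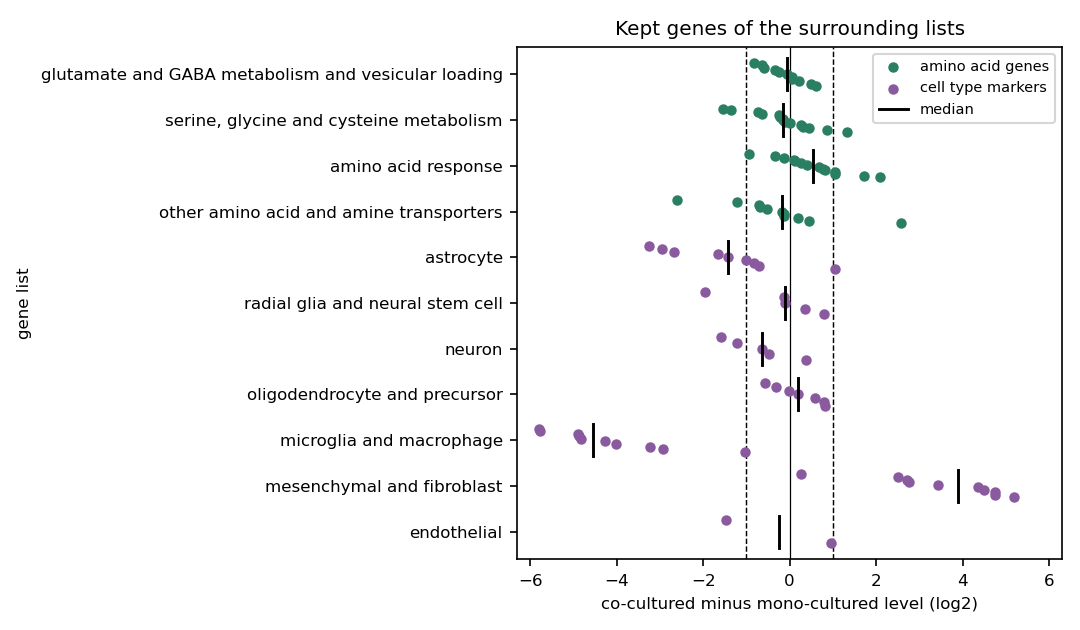
Differences (co-cultured minus mono-cultured level, log2, x axis) of the kept genes of 4 amino acid gene lists and of 7 lists of cell type markers. Points are genes, the black bars are list medians and the dashed lines mark 2-fold. Amino acid response genes lie mostly right of 0 (median 0.55), astrocyte (-1.43) and microglia (-4.54) markers left of it, and mesenchymal markers (3.89) right of it.

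Markers of several cell types moved with these differences, and their part in them was not tested. In a bulk sample, fewer cells of a type and less RNA per cell cannot be told apart. Of 9 kept astrocyte markers, 6 stood 2-fold or more below mono-culture and 1 above it, and the mean level of the 10 markers was 5.90 in co-cultured and 7.24 in mono-cultured NSCs. Among them Gfap was 6.00 in co-culture against 8.96 in mono-culture, and Gja1, the 1 marker above, was 7.15 against 6.11. These values stand beside the lower Slc1a2, Slc1a3, Slc6a11 and Slc38a3, while the glial Slc6a9 differed by 0.88 and Glul by 0.21. All 10 microglia and macrophage markers were at least 2-fold lower, with a mean level of 4.74 in co-cultured and 8.90 in mono-cultured NSCs, beside Slc7a7, Slc7a8 and Slc43a2. Of these markers 1, C1qa, stayed above the negative control level in co-culture, against 9 in mono-culture.

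Of 10 mesenchymal and fibroblast markers, the cell class of the EMSCs, 9 were at least 2-fold higher, and their mean level was 9.18 in co-cultured and 5.66 in mono-cultured NSCs. The NSCs had been sorted away from the EMSCs, and 9 of these markers stood above the negative control level in co-culture, against 1 in mono-culture. These values stand beside every transporter gene that was higher, Slc38a2, Slc38a4, Slc7a1, Slc7a5, Slc7a14 and Slc6a13. Of these, Slc38a4, Slc7a14 and Slc6a13 were under the negative control level on both arrays. Which cells the higher levels came from was not tested. Of the 7 markers of radial glia and neural stem cells on the array, 4 were above the negative control level on each array, with Sox2 at 8.69 in co-cultured and 8.83 in mono-cultured NSCs and Nes at 8.25 in co-cultured and 7.45 in mono-cultured NSCs. Hes5 was under that level on both arrays, and Pax6 and Prom1 were dim on both. Of the 5 kept markers, 4 lay within 2-fold, and Fabp7 was lower in co-culture, at 7.81 against 9.76 in mono-culture. Of 5 kept neuron markers 2 were at least 2-fold lower, and of 7 oligodendrocyte lineage markers 0 passed 2-fold.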

How the data were processed

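RNA (250 ng) of 1 sample per condition received biotin labels for a whole-transcript array, per the labels' protocols. The authors made the deposited log2 values, 1 per transcript cluster, with RMA, per the submitters' processing notes. The software version is not given in the sources used here. RMA makes the arrays' distributions alike, so a change of most genes at once cannot be seen.

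The table holds 68842 transcript clusters and 1738 controls. The platform annotation gave 1 symbol to 23446 probe sets, which were averaged per gene, and all 62 members matched GRCr8 by Entrez ID. No p-value was computed. Counting at 2-fold was checked on simulated data, with 4-fold changes added only to genes well above the median level. That check says nothing on dim genes or on changes close to 2-fold. Its noise was smaller than the spread of the control probe sets, so it says little on false calls. The number of arrays limits the precision. Members and lists were chosen with earlier results of these data known. Every member may be named, and of each other list up to 4 kept genes with the largest absolute difference, plus Atf4, Ddit3, Ddit4, Glul and markers, chosen after their values were seen.

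Alternatives were other normalizations (limma 3.58.1 in R 4.3.3), filters, floors, probe set rules and thresholds. The rest was computed in Python 3.11.15 with pandas 2.3.3 and numpy 2.4.6.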

Additional observations from a re-analysis of the deposited data

How the results depend on the processing

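No paired analysis was possible because each condition has 1 array, and for the same reason no replicate could be left out. Of the 15 transporter genes past 2-fold, 15 stayed past it under quantile normalization and 14 after median centring, under which Slc6a13 differed by 0.98. Taking the brightest probe set could alter no member's difference, since each has 1 probe set. With both levels required to reach 4.97, 3 were higher and 4 lower (3.06% and 2.96% of all genes so filtered). With the higher level at the 75th percentile of all gene levels, 3 were higher and 6 lower (6.67% and 6.92% of genes). With levels raised to the negative control level, 2 were higher and 3 lower (1.70% and 1.59%), and at 4-fold 2 were higher and 3 lower (1.80% and 1.91%). Other counts stayed within 1.5 times, with 4 higher and 7 lower after raising levels to 4.97 (4.09% and 4.25% of kept genes). At 1.5-fold 8 were higher and 10 lower (9.24% and 11.4% of kept genes). Fewer genes, or compressed differences, follow from how these settings are built. The median difference ran from -0.16 after median centring to 0.05 without a filter on dim genes, where the median of all genes was 0.00. No gene past 2-fold changed sign under any of these settings, though some differed by 0 when both of their levels were raised to 6.64. The unchanged signs say little, because filters, thresholds and floors cannot reverse a difference and median centring moves all differences alike. The table gives no replicate spread.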

Other observations

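Transporters of amino acids and amines outside the 7 families went both ways. Of 11 kept genes on this list, 1 was at least 2-fold higher in co-culture and 2 were lower, with a median difference of -0.19. Over all kept genes 5.04% were higher and 5.54% lower, with a median of -0.06. Slc15a3, a lysosomal transporter of histidine and small peptides known from macrophages, was 4.27 in co-culture against 6.88 in mono-culture. Slc25a18, a mitochondrial glutamate carrier known from astrocytes, was 4.99 in co-culture against 6.21 in mono-culture, both under the negative control level. Slc18a2, which loads monoamines into vesicles, was 5.98 in co-culture against 3.41 in mono-culture, also under that level on both arrays, while the plasma membrane monoamine transporters Slc6a2, Slc6a3 and Slc6a4 were dim. Slc25a13, a mitochondrial aspartate and glutamate exchanger, differed by -0.72.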
